A study of Mus musculus with 3 samples.

Results

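A stretch of mouse chromosome 17 known to hold Glo1 was densely filled by potential open chromatin intervals, which covered 56.7% of its bases. The stretch runs from 30580001 to 31060000 of mm9, which is 480 kb, and its members were all intervals with a midpoint inside these limits. There were 1334 of them among 348759 in the list, or 0.382% of the list and 8.23% of the 16204 intervals of chromosome 17. The limits came from a scan of the same list for at least 10 consecutive bins of 20 kb that were each at least 20% covered by intervals. High coverage and a high number of intervals were therefore fixed by the choice, and they are given below as a description without a test. The stretches from 29000001 to 30580000 (1580 kb, 737 intervals) and from 31060001 to 32500000 (1440 kb, 554 intervals) served as left and right flanks. The list names no genes, so the placement of Glo1 in the stretch is background and could not be checked here.

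The cells were wild type mouse embryonic stem cells labelled with the mixed strain 129Sv-C57Bl/6 and grown without feeder cells. The series held 3 samples, namely genomic input DNA and FAIRE DNA from cells treated for 16 h with either DMSO, the solvent, or 500 nM ICRF-193. FAIRE enriches DNA that formaldehyde leaves loosely bound to protein, such as active promoters and enhancers, and ICRF-193 is a catalytic inhibitor of topoisomerase II. The 1 list assigned no interval to a sample, so nothing here bears on the inhibitor, and there were no replicates, p-values or known read depths. Scores are the authors' own, on a scale not given in the sources used here. Going by its name, the list was made with F-Seq, which turns aligned reads into a smooth density along the genome and reports where that density passes a threshold.

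Glo1 encodes glyoxalase 1, which with glutathione removes methylglyoxal, a reactive by-product of glycolysis. In the gene order of chromosome 17, taken by name alone from a RefSeq table of another build (GRCm38.p6), Zfand3 and Btbd9 precede Glo1, and Dnah8, Glp1r, Umodl1 and Abcg1 follow it. Btbd9 encodes a BTB domain protein, Dnah8 a heavy chain of the axonemal dynein that moves sperm tails, Glp1r the receptor for the gut hormone GLP-1, and Abcg1 a cholesterol transporter. A copy number gain that includes Glo1 is known from inbred mouse strains. It is present in A/J and DBA/2J, among others, and absent from C57BL/6J, the strain of the reference genome. Reads from every copy of a gained segment align to the single copy in the reference, so open and closed sequence alike receives more reads there. For the ends of that known gain, and for whether these cells carry it, a value was not given in the sources used here. An mm9 annotation was not used, so no interval was assigned to a gene, an exon or an intron.

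Coverage dropped steeply at both edges of the filled sequence, though the position of the right edge depended on the gap allowed. When intervals separated by gaps of at most 5 kb were chained, a single run of 1335 intervals extended from 30584375 to 31060901, a length of 476.5 kb, and 57.3% of its bases were covered. It was the longest of the 73190 such runs on the 19 autosomes. The next longest lay on chromosome 8 and measured 184.9 kb, and the third, on chromosome 13, measured 170.9 kb and was 19.3% covered. To the left of the run 6082 bp held no interval, then came 2 narrow intervals that ended at 30578292, and a further 46044 bp were empty. To the right 27017 bp were empty, up to 31087919. When gaps of at most 2 kb were chained, the left end was the same and the right end was 31032200. The gap beyond that end was 2032 bp.

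The limits of the rule lay within a few kb of the ends of the run chained at 5 kb. The last interval below the left limit was 2 bp wide with a score of 0.0130, and the first above it was 1 bp wide with a score of 0.0131 and opened the run. At the right limit the last interval inside was 161 bp wide with a score of 0.0145. The first interval outside, at 31059747 to 31060901, was 1155 bp wide with a score of 0.0280. This interval closed the run, and the midpoint rule placed it in the right flank, 323.5 bp beyond the limit.

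**Figure D1:**
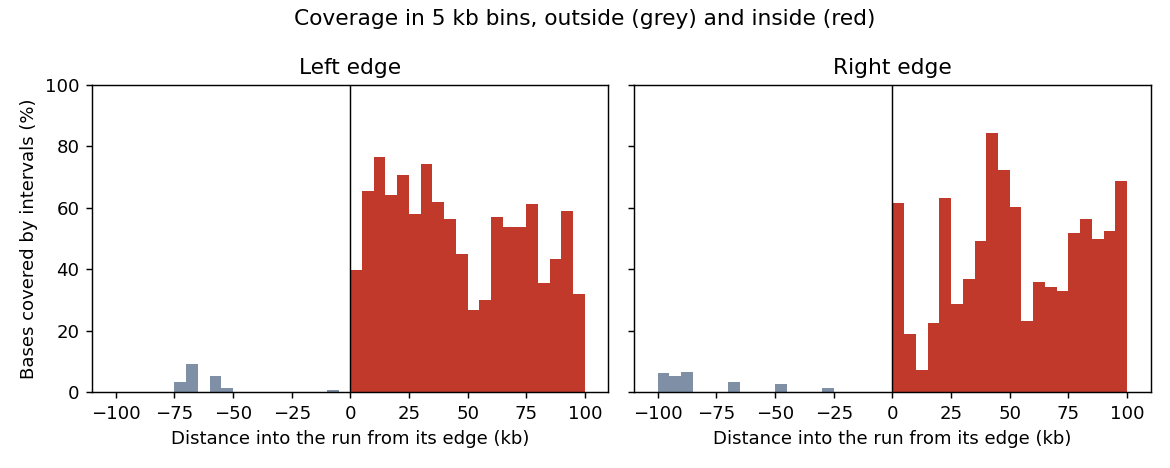
Share of bases covered by intervals (%) in 5 kb bins against the distance from the left and right edges of the filled run (kb); grey bars lie outside the run and red bars inside. The first bin inside is 39.7% covered on the left and 61.7% on the right, where the third bin inside dips to 7.36%. The bin next to each edge on the outside is 0% covered by definition, because the run ends at a gap above 5 kb.

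Bins of 5 kb resolved the steps, as the plot of both edges shows. The run ends only where a gap exceeds 5 kb, so the nearest bin outside each edge was empty by definition. In the 100 kb outside the left edge coverage averaged 0.99%, 15 of 20 bins had no interval, and the most covered bin reached 9.2%. In the 100 kb inside, coverage averaged 53.2% and the least covered bin held 26.8%. At the right edge the average rose from 1.27% outside, with 14 of 20 bins empty, to 45.6% inside. The inner side of the right edge was uneven. From the edge inward the first 3 bins were 61.7%, 18.9% and 7.36% covered. The left edge had no such dip, and its first 3 bins were 39.7%, 65.6% and 76.5% covered. The 3 longest gaps of the stretch all lay within 30 kb of the right edge, at 31047562 to 31050594 (3033 bp), 31054492 to 31056556 (2065 bp) and 31032201 to 31034232 (2032 bp).

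The floor between the edges depended on the size of the bin. Of the 24 bins of 20 kb, the least covered was the last, at 31040001 to 31060000 with 23.1%, the median was 54.1%, and the most covered, at 30740001 to 30760000, reached 79.8%. Since the scan required 20% in each bin, the lowest value could not have fallen below that level. The least covered bin held 14.5% with bins of 10 kb, 7.36% among the 5 kb bins beside the edges, and no interval with bins of 2 kb. The left flank had a median bin of 2.86% and a highest bin of 29.4%, at 29580001 to 29600000. The right flank had a median of 3.15% and a highest bin of 21.7%, at 31940001 to 31960000. The levels overlapped only through the least covered bin of the stretch, which lay below 4 of the 79 left bins, and 16 of the 24 bins inside were at least 50% covered against 0 of 151 outside.

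**Figure D2:**
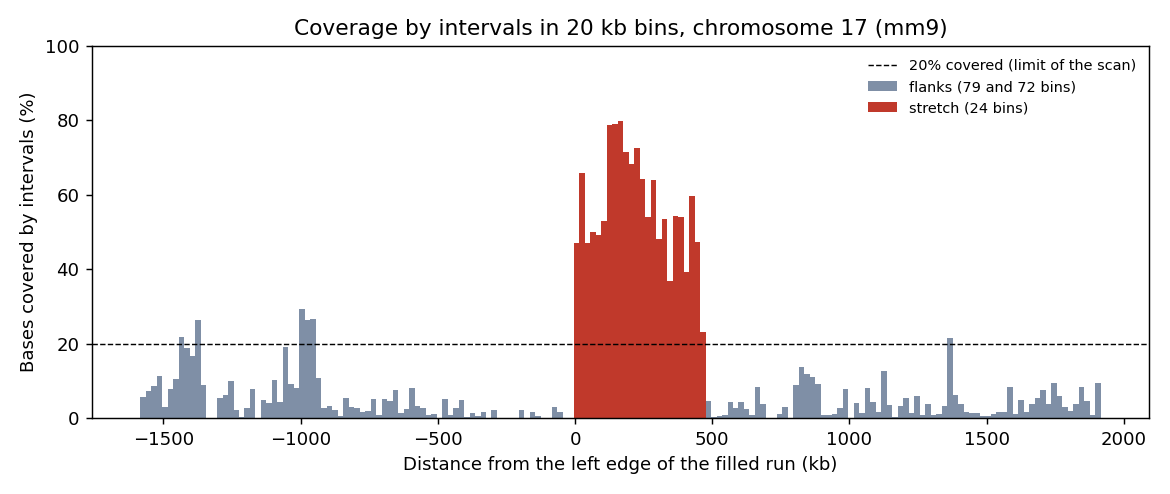
Share of bases covered by intervals (%) in 20 kb bins against the distance from the left edge of the filled run (kb), with the 24 bins of the stretch in red, the 79 and 72 bins of the flanks in grey and the 20% limit of the scan dashed. The bins of the stretch lie between 23.1% and 79.8%, and the flanks reach 29.4% on the left and 21.7% on the right.

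Bins of 2 kb described the cover at a finer scale. They lie within the bins that the scan chose, so their coverage was largely fixed by that choice. Of the 240 bins inside, 3 had no interval, against 500 of 790 in the left flank (63.3%) and 476 of 720 in the right flank (66.1%). At least 50% of the bases were covered in 150 bins inside (62.5%), in 8 of the left flank and in 4 of the right flank. No bin of the stretch was completely covered, and the highest reached 99.8%. The cover was made of many separate pieces. The median gap between neighbours was 33 bp inside and 231 bp in the flanks, and 45.4% of the 1333 gaps inside were no longer than 20 bp, against 34.6% of 1289 in the flanks. No gap inside exceeded 5 kb, whereas 156 gaps in the flanks did, the longest being 101978 bp.

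Coverage was not even along the stretch. It was highest in the third of 8 segments of 60 kb, at 30700001 to 30760000, where 115 intervals covered 79.2%. Next to it, the fourth was 70.8% covered and the fifth 60.9%. The first and second segments were 53.3% and 50.8% covered, and the sixth, the seventh and the eighth were 46.2%, 49.2% and 43.4% covered. The third segment had the fewest intervals and the second the most (209). Among intervals of at least 200 bp, the median width was 727 bp in the third segment and between 300 and 464 bp in the other 7. Their median score was 0.0244 in the third segment and between 0.0193 and 0.0214 elsewhere.

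Within the stretch most intervals were narrow and just above the list's lowest score (0.0129), as they were in the flanks. The median width was 43.5 bp inside and 40 bp in the flanks, and 437 of the 1334 intervals inside and 395 of the 1291 in the flanks were no wider than 10 bp. The median scores were 0.0138 inside, 0.0137 in the left flank and 0.0136 in the right flank. The 90th percentiles were 0.0230, 0.0235 and 0.0238. High-score intervals, those at or above the 90th percentile of the list, numbered 114 inside, or 8.55% of the members, against 10% in the list by definition. In the left flank 71 intervals (9.63%) and in the right flank 57 (10.3%) passed this level. The typical score of a listed interval was thus not raised in the stretch, while the number of intervals per Mb was 2779 inside, 466 in the left flank and 385 in the right flank. The list holds no lower score than 0.0129, and 54.2% of intervals inside and 57.6% in the flanks lay within 10% of it. The median of listed intervals therefore need not follow the level of signal.

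Intervals of at least 200 bp showed how the cover was built. They numbered 426 inside, or 31.9% of the members, and held 87.2% of the covered bases, whereas in the flanks 260 such intervals made up 20.1% of the intervals and held 66.2% of the covered bases. Their median width was 413.5 bp inside and 309 bp in the flanks. Their scores were lower inside, with a median of 0.0206 and an interquartile range of 0.0182 to 0.0240, than in the flanks, with a median of 0.0236 and a range of 0.0199 to 0.0284. Wide intervals were thus 10.3 times as dense inside as in the flanks, and their median score was 0.87 times that of the flanks. After joining intervals within 500 bp, 103 regions remained inside with a median width of 1911 bp, the widest spanning 27579 bp. The flanks gave 548 regions, of which the median spanned 176 bp and the widest 4030 bp. Joined regions were 1.18 times as dense inside as in the flanks, against 6.50 times for the intervals as listed.

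Peaks of score rose out of this carpet at a few places. Scores at or above the 99th percentile of the list (0.0456) belonged to 14 intervals inside, or 1.05% of the members, against 1% in the list by definition. In the flanks 4 intervals reached this level, 2 on each side, although the flanks together are 3020 kb long. That is 29.2 per Mb inside and 1.32 per Mb in the flanks. The size of this difference depended on the level: among joined regions the ratio was 17.3 at the 99th percentile and 2.89 at the 95th percentile. The share among members was near the share in the list, and the share among the intervals of the flanks was lower, at 0.31%.

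**Figure D3:**
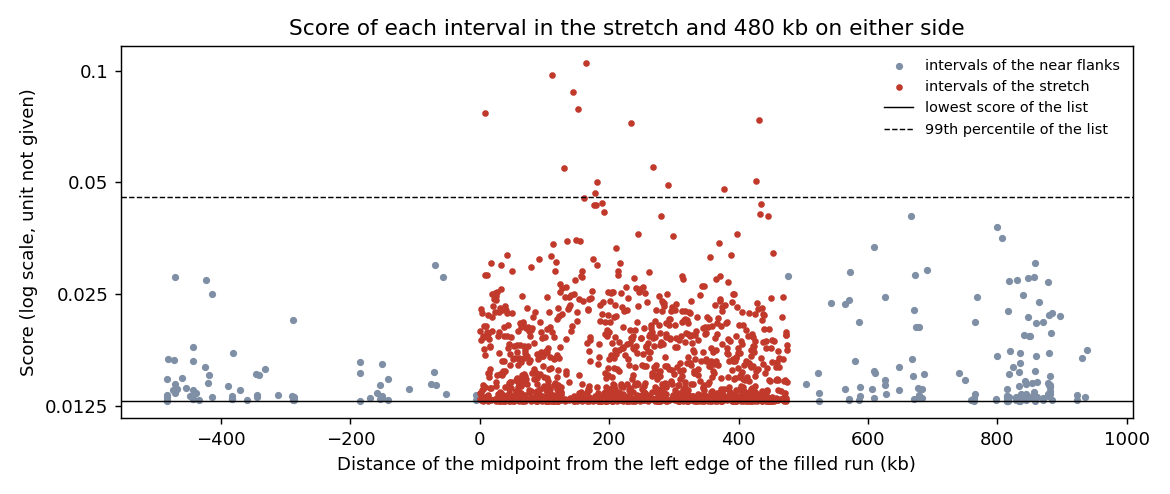
Score of each interval (log scale, unit not given) against the distance of its midpoint from the left edge of the filled run (kb), for the 1334 intervals of the stretch in red and the 68 and 134 intervals of the 480 kb on either side in grey; the solid line is the lowest score of the list and the dashed line its 99th percentile. The 14 intervals above the dashed line are all inside the stretch, and the highest scores 0.105.

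The highest peak stood at 30747430 to 30749987, 2558 bp wide, with a score of 0.105. It ranked 305th of 348759 intervals in the list and scored 4.34 times the median of the other intervals of at least 200 bp within 10 kb. The second, at 30696179 to 30696960, was 782 bp wide and scored 0.0977, which was 4.84 times its local median. The third, at 30726919 to 30728894, scored 0.0876 over 1976 bp, and the fourth, at 30735162 to 30736312, scored 0.0789 over 1151 bp. The fifth peak differed in shape. It was 429 bp wide, lay at 30591822 to 30592250, only 7.66 kb from the left edge, and scored 0.0768, or 3.87 times its local median.

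Of these 5 peaks the first, the third and the fourth lay in the third segment, which was also the most covered. Together with the interval at 30712981 to 30715751, which at 2771 bp was the widest of the stretch and scored 0.0546, that segment held 4 of the 14 peaks. The fourth segment held 3 peaks, the fifth and the eighth 2 each, the first, the second and the seventh 1 each, and the sixth none. In the sixth segment, at 30880001 to 30940000, the highest score was 0.0359. Over all 14 peaks the scores ran from 0.0468 to 0.105 with a median of 0.0638, and the ratio to the local median ran from 1.96 to 4.84. The peaks were chosen by score, so a ratio above 1 was favoured by the choice. For the 3 highest intervals of each flank this ratio ran from 1.44 to 2.36, with only 1 to 9 neighbours each.

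The other wide intervals of the stretch were lower. The second widest, at 31036398 to 31039109 (2712 bp), scored 0.0323 and lay near the right edge. The third widest, at 30744671 to 30747324 (2654 bp), scored 0.0455 and adjoined the highest peak. The fifth widest, at 30718460 to 30720916 (2457 bp), scored 0.0348. The fourth widest was the highest peak itself.

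The highest intervals of the flanks scored below the 7 leading peaks of the stretch, and their widths, 353 to 1510 bp, overlapped those of the peaks. In the left flank the first 3 scored 0.0485 at 29651397 to 29651749, 0.0458 at 29978630 to 29979028 and 0.0454 at 29601469 to 29602978. In the right flank they scored 0.0577 at 32487365 to 32488113, 0.0482 at 31700962 to 31701577 and 0.0448 at 31944910 to 31945895. The highest score inside was 1.82 times the highest of the flanks, and 7 of the 1334 intervals inside exceeded every interval of the flanks. In the list of 348759, the highest interval of the flanks ranked 1234th, or in the top 0.354%.

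**Figure D4:**
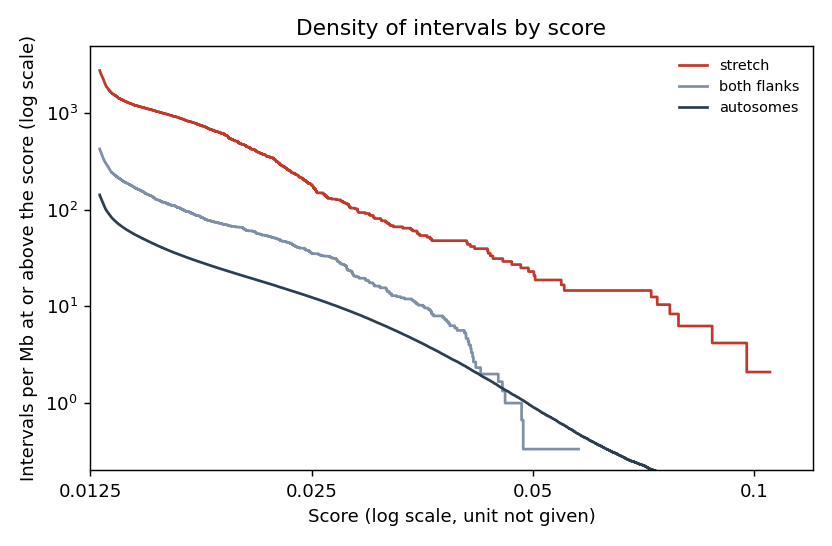
Number of intervals per Mb at or above each score (log scale) against the score (log scale, unit not given) for the stretch, both flanks together and the 19 autosomes; scores beyond the axis are not drawn. The stretch lies above the flanks at every score, at 2779 against 427 per Mb at the lowest score and at 29.2 against 1.32 per Mb at the 99th percentile.

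The excess over the flanks was not a single factor at all scores. At 1.25 times the lowest score, 954 intervals per Mb were listed inside and 112 in the flanks, a ratio of 8.50. At 2.0 times the lowest score the ratio was 4.44, with 150.0 and 33.8 per Mb. Between 1.5 and 2.0 times the lowest score the density inside fell from 552 to 150.0 per Mb, while in the flanks it fell from 68.2 to 33.8. Intervals at or above 2.0 times the lowest score made up 5.40% inside and 7.90% in the flanks, so most lay below it in both. This held for the list too, whose 90th percentile (0.0237) was below that level (0.0257). At 3.0 times the ratio was 7.62, with 47.9 and 6.29 per Mb. At 4.0 times it was 56.6, but the flanks then held only 1 interval.

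A comparison with the known copy number gain used the ratio of scores, because the number of intervals above a threshold need not be proportional to the density. If scores followed DNA dose and the sites inside and outside were alike, 1 extra copy on 1 of the 2 homologous chromosomes would give a ratio of 1.5, and 1 on each would give 2.0. Neither condition was tested. Scores were compared at the level exceeded by the same number of joined regions per Mb inside and outside. At 20 regions per Mb, which rests on 10 regions inside, the score was 0.0493 inside and 0.0286 in the flanks, a ratio of 1.73. At 50 per Mb it was 0.0300 and 0.0214, a ratio of 1.40, and at 100 per Mb 0.0230 and 0.0155, a ratio of 1.49. With either flank alone the 3 ratios lay between 1.34 and 1.73. Against the near flanks of 480 kb they were higher, at 1.98, 1.81 and 1.71 for 20, 50 and 100 per Mb. Without the top 1% of intervals by score they were 1.26, 1.42 and 1.54. The stretch was chosen on coverage, which favoured a ratio above 1 whatever the DNA dose. Each joined region keeps the highest score of its members, and joining leaves fewer regions to rank. Inside, 1334 intervals formed 103 regions, and in the flanks 1291 formed 548. Without joining, the ratios were 1.74, 1.62 and 1.72 at 20, 50 and 100 per Mb. Joining thus gave lower ratios at 50 and 100 per Mb and nearly the same ratio at 20 per Mb.

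These ratios moved with the reference and with the unit that was ranked. Against the rest of chromosome 17, where sites were sparser, they were 2.33 at 20 per Mb and 2.09 at 50 per Mb. Against the autosomes they were 2.55 and 2.18 at these densities. Joining merged the 14 peaks of the stretch into 11 regions and left the 4 of the flanks apart. With the highest score in fixed bins of 2 kb, a measure chosen after the data were seen, the ratios were 2.43, 2.01 and 1.99 at 20, 50 and 100 bins per Mb. Of these bins, 98.8% inside and 35.4% in the flanks held an interval, so this measure was favoured by the choice as well. The score ratios spanned both 1.5 and 2.0 and did not separate them. Whether the cells carry extra copies of the stretch was not tested, and a read count of the input library, which would measure DNA dose directly, was not analysed here.

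The stretch differed in composition from the other filled stretches found by the same scan. The scan gave 7 stretches on the autosomes, of which the other 6 measured 200 to 440 kb and lay on chromosomes 1, 4 and 8. The stretch on chromosome 17 had the most intervals per Mb, 2779 against 320 to 1614 in the others, and the lowest median score, 0.0138 against 0.0144 to 0.0534. High-score intervals made up 8.55% of its intervals and 19.3% to 53.1% of those in the others. Its peaks at or above the 99th percentile, 29.2 per Mb, were sparser than the 47.5 to 165 per Mb of the others. Bare sides were not particular to it. The 100 kb to its left and right were 0.99% and 2.17% covered. Beside the stretch at 87340001 on chromosome 1 they were 0% and 1.48%, and at 71940001 on chromosome 8, 2.71% and 1.64%. In each of the rest, at least 1 side was 12% covered or more. All 7 were chosen on coverage, and these comparisons carry no test.

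Among 5006 tiles of 480 kb on the autosomes, with the tiles of chromosome 17 laid so that 1 of them was the stretch, it ranked first for the number of intervals, at 1334 against 720 in the next. It ranked second for covered bases and for high-score intervals, and 11th for intervals at or above the 99th percentile. The median tile held 37 intervals that covered 0.84% of its bases. The choice on coverage and the placing of a tile on the stretch both favoured a high rank, so the ranks are a description only.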

How the data were processed

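Per the submitters' processing notes, reads were handled with Bowtie (no version named) on the build mm9. The deposited list has 5 columns without a header, and its score is the authors' value for each interval. Settings, filters and the samples that entered it were not given in the sources used here. Groups were not compared, because the list separates no samples. Starts count from 0 in the list and are printed counted from 1. Members and flanks were set by interval midpoints, coverage is the share of bases inside intervals, and joining used gaps of at most 500 bp and kept the highest score. By rule the text names the 5 highest-scoring and 5 widest intervals of the stretch, the 3 highest of each flank, the bins of lowest and highest coverage, the 3 longest gaps and the edge bins. Members and rules were chosen with earlier results of these data known. Values were computed with Python 3.11.15, pandas 2.3.3 and numpy 2.4.6, and the procedures were tested on simulated intervals. In the test of score ratios, the simulated sites were spaced alike inside and outside and farther apart than in the stretch. That test therefore did not cover intervals packed as closely as those found here. Read depth is unknown, so no error is given. Promoters were not analysed and no sequence is printed, since an mm9 annotation and genome were not used here.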

Additional observations from a re-analysis of the deposited data

How the results depend on the processing

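Of 54 alternative values for 10 results, 47 stayed within 1.5 times of the reported value and 7 moved further. The density of intervals inside over that in the flanks, 6.50, was 10.3 for intervals of at least 200 bp, 13.2 against the near flanks of 480 kb and 1.18 after joining within 500 bp, which merges neighbours by construction. The ratio of coverage, 11.8, was 21.9 against the near flanks, which had fewer intervals. The least covered bin, 23.1%, was 14.5% with bins of 10 kb and 35.2% with bins of 40 kb. The density of peaks inside over that in the flanks after joining, 17.3, was 2.89 at the 95th percentile of score, and the cause was not tested. The filled run measured 447.8 kb when gaps of at most 2 kb were chained and 482.6 kb with 10 kb. The ratio of median scores, 1.01, lay on the other side of 1 for intervals of at least 200 bp (0.87) and against the near flanks (0.98), and its highest value was 1.10. Over the alternatives the ratio of the 90th percentiles ran from 0.82 to 0.97. The score ratio at matched density ran from 1.26 to 2.43 over its 3 densities. The autosomes were not among these alternatives, and against them it reached 2.55 at 20 per Mb. A further 4 alternatives left too few regions for a value. Alternatives for promoters were not run, and counting by any overlap does not apply to covered bases. No paired analysis was possible because the list separates no samples, and for the same reason no leave-one-out values exist. Without a known read depth, an empty bin does not show closed chromatin.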
